A study of Mus musculus with 11 samples.

Results

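Exocrine secretion from the pancreas is driven by hormones and nerves through a small set of receptors on acinar and duct cells, and 7 of these secretagogue receptor genes were followed here in mouse pancreas with caerulein-induced acute pancreatitis. They encode the cholecystokinin receptors (Cckar and Cckbr), muscarinic acetylcholine receptors (Chrm1 and Chrm3), the secretin receptor (Sctr) and the receptors for vasoactive intestinal peptide (Vipr1 and Vipr2). The genes were chosen by name, and each was read from its brightest probe set over all 11 arrays among those with exactly 1 gene symbol. All 7 were measured, out of 19938 genes represented in the same way and 35556 probe sets on the array. A second probe set was present for Vipr1, which gave 8 probe sets for the 7 genes.

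The mice were wild-type C57Bl6J. They received 9 intraperitoneal injections at hourly intervals, either of caerulein, at a dose stated as 50 mg/kg in the series record, or of sodium chloride (NaCl) as the control. The unit of that dose is doubtful, since caerulein pancreatitis in mice is usually induced with micrograms per kilogram. Whole-pancreas RNA was hybridised to Affymetrix arrays, with 6 caerulein and 5 NaCl arrays by the sample titles, whereas the series text counts 4 control mice. The sources used here do not give the time of collection or the age and sex of the mice. The labels number the samples but do not say that each came from a separate mouse, so the p-values speak only of the spread among these arrays, which may in part be technical.

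Cholecystokinin and acetylcholine act on receptors that couple to Gq. This G protein activates phospholipase C, and the inositol trisphosphate that it forms releases calcium from stores and so triggers exocytosis of zymogen granules. Secretin and vasoactive intestinal peptide act on receptors that couple to Gs and raise cyclic AMP, which drives bicarbonate and fluid secretion from duct cells and adds to enzyme secretion from acinar cells. Caerulein is a peptide analogue of cholecystokinin, and at doses above those that give maximal secretion it is a standard means of inducing acute pancreatitis in mice.

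Values are log2 expression as deposited, and a negative difference means less in caerulein than in NaCl pancreas. Correlations between arrays over all probe sets lay between 0.981 and 0.991 within a group and between 0.938 and 0.955 across groups. Over all genes the median difference was -0.13. At an adjusted p under 0.05 (limma, Benjamini-Hochberg over all probe sets), 34.3% of genes were lower and 20.3% were higher in caerulein pancreas, and 1.44% were lower by at least 2-fold. With each array shifted to an equal mean of 12 commonly used reference genes, a scaling tried as an alternative, 86.5% were lower and 5.96% higher, and after cyclic loess 18.2% and 21.9%. On the NaCl side every array lay above every caerulein array for 20.6% of genes, and the reverse held for 16.7%. Probe sets differ in their affinity, so levels are not compared between genes.

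Transcripts of 6 of the 7 receptor genes were lower in caerulein pancreas and 1 was higher, against the background shares of 34.3% and 20.3%. Cckar, the receptor at which caerulein acts on mouse acinar cells, fell 16.6-fold and was the only member past 2-fold. Falls of 1.42-fold to 1.61-fold were measured for Chrm1, Sctr, Vipr1 and Vipr2. The fall of Cckbr and the rise of Chrm3 were smaller, at 1.19-fold and 1.23-fold, and depended on how the arrays were scaled. The 2 groups of arrays did not overlap for 5 members, all of them lower, where 20.6% of all genes showed such a separation. The median difference of the 7 genes was -0.55.

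**Figure D1:**
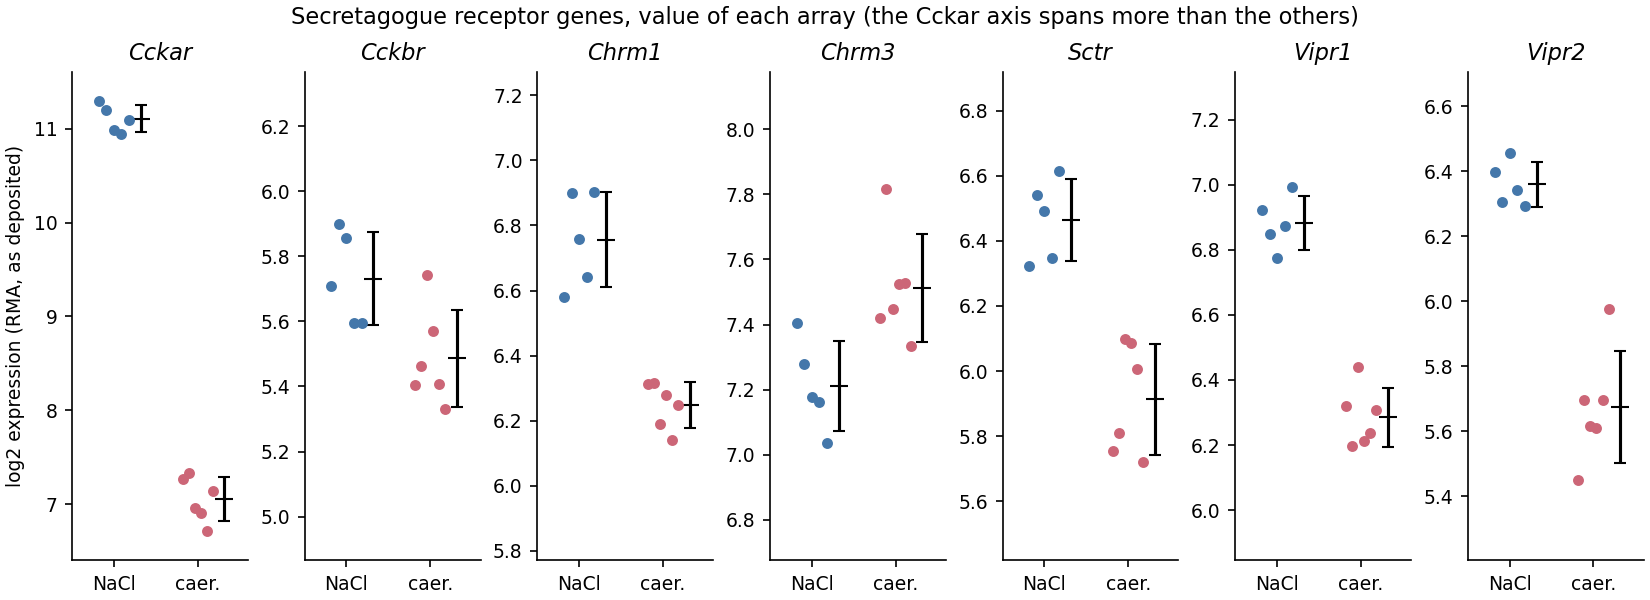
Log2 expression of each receptor gene, 1 panel per gene. Points are arrays (5 NaCl, 6 caerulein), horizontal marks are group means and bars are SD; the Cckar axis spans more log2 units than the others. The groups overlap for Cckbr and Chrm3 and are apart for the other 5 genes.

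Cckar encodes the high-affinity cholecystokinin receptor of the mouse acinar cell. Its log2 values in NaCl pancreas were 11.29, 11.20, 10.99, 10.95 and 11.09 on replicates 1 to 5. In caerulein pancreas they were 7.27, 7.33, 6.96, 6.91, 6.71 and 7.14 on replicates 1 to 6. Every caerulein array was thus low and every NaCl array high, with a gap of 3.61 between the nearest arrays of the groups. The means were 11.10 ± 0.14 (SD, n = 5) and 7.05 ± 0.24 (SD, n = 6). The difference was -4.05 (SE 0.11, 95% interval -4.30 to -3.81, adjusted p = 5.22e-11 in the limma fit). This was the largest fall among the 19938 genes in the values as deposited. Over all 11 arrays the mean level of the probe set lay at percentile 95.9 of all probe sets. The caerulein mean of 7.05 was still above 5.93, the 99th percentile of the levels of 1178 olfactory and vomeronasal receptor genes, which are not known as pancreas genes and served as a reference for dim signal. Of these 1178 genes, 223 (18.9%) were called lower and 0 higher in the limma fit, with a median difference of -0.12. Small falls called lower thus also arose among genes of the dim reference.

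Cckbr, the gastrin and cholecystokinin receptor of stomach and brain, gave a dim signal. NaCl values were 5.71, 5.90, 5.86, 5.59 and 5.60, and caerulein values ran from 5.33 through a median of 5.44 to 5.74. The groups overlapped: the highest caerulein array lay above 3 of the NaCl arrays. The means were 5.73 ± 0.14 (SD, n = 5) and 5.49 ± 0.15 (SD, n = 6), a difference of -0.25 (SE 0.09, 95% interval -0.44 to -0.05, adjusted p = 0.0407 in the limma fit). The test was not passed after a second quantile normalisation (-0.12, adjusted p = 0.343), after cyclic loess (-0.07, adjusted p = 0.59) or without any one of 7 arrays, which were NaCl replicates 1, 2 and 3 and caerulein replicates 1, 2, 5 and 6. Its mean level of 5.60 was exceeded by 30 of the 1178 olfactory and vomeronasal receptor genes. With all genes ranked by mean level and cut into 10 equal bands, the 1994 genes of the band of Cckbr had a median difference of -0.23 and 50.6% of them were lower, a comparison that was added after the values were seen.

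Chrm3 encodes the M3 receptor, the main muscarinic receptor for acinar enzyme secretion in mice, and Chrm1 encodes M1, which also couples to Gq. Chrm3 read 7.41, 7.28, 7.18, 7.16 and 7.04 on the NaCl arrays. On the caerulein arrays its values ran from 7.33 through a median of 7.49 to 7.82. The lowest caerulein array lay below the highest NaCl array, so the groups overlapped by a single NaCl array, replicate 1. The means were 7.21 ± 0.14 (SD, n = 5) and 7.51 ± 0.17 (SD, n = 6), a difference of 0.30 (SE 0.09, 95% interval 0.10 to 0.50, adjusted p = 0.0195 in the limma fit).

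The rise of Chrm3 depended on the scaling of the arrays, and its sign turned in 1 of 22 alternatives. With the reference-gene scaling, Chrm3 was lower in caerulein pancreas, with a difference of -0.46 (adjusted p = 0.00148). The reference genes were themselves not steady in the values as deposited: 7 of the 12 were higher and 0 lower (limma; 0 lower at an unadjusted p under 0.05 too), with Actb up 7.64-fold, Ywhaz 3.67-fold and Pgk1 3.15-fold. That shift moved the median of all genes from -0.13 to -0.89, and Chrm3 lay 0.43 above the median gene under both. The rise did not pass the test after a second quantile normalisation (0.05, adjusted p = 0.708), after cyclic loess (0.18, adjusted p = 0.17) or without NaCl replicate 5 (0.26, adjusted p = 0.0518). Among the 1994 genes of its band of mean level the median difference was 0.28 and 52.5% were higher, again a comparison added after the values were seen.

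Chrm1 was lower. NaCl values were 6.58, 6.90, 6.76, 6.64 and 6.90, and caerulein values ran from 6.14 through a median of 6.26 to 6.32. No array of either group crossed into the range of the other, with a gap of 0.27. The means were 6.76 ± 0.15 (SD, n = 5) and 6.25 ± 0.07 (SD, n = 6), a difference of -0.51 (SE 0.08, 95% interval -0.67 to -0.35, adjusted p = 1.32e-04 in the limma fit). The 2 muscarinic genes thus moved apart within arrays: the log2 value of Chrm3 minus that of Chrm1 was 0.13 to 0.83 on NaCl arrays and 1.09 to 1.5 on caerulein arrays. The change of Chrm3 minus the change of Chrm1 was 0.81, and 0.63 and 0.67 after a second quantile normalisation and cyclic loess. Genes of the band of mean level of Chrm3 had a median difference of 0.28, and those of the band of Chrm1 one of -0.105. A difference taken within an array does not remove such a trend with level. The pair of Chrm3 and Chrm1 was chosen after its values were seen and was not tested.

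Sctr encodes the secretin receptor, best known for its part in duct cell bicarbonate secretion and present on acinar cells too. Its NaCl values were 6.32, 6.54, 6.49, 6.35 and 6.62, and its caerulein values ran from 5.72 through a median of 5.91 to 6.10. All caerulein arrays were below all NaCl arrays, with a gap of 0.23. The means were 6.46 ± 0.13 (SD, n = 5) and 5.91 ± 0.17 (SD, n = 6), a difference of -0.55 (SE 0.09, 95% interval -0.75 to -0.35, adjusted p = 3.75e-04 in the limma fit).

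Vipr1 and Vipr2 encode the VPAC receptors, which bind vasoactive intestinal peptide and the related peptide PACAP. Vipr1 read 6.92, 6.85, 6.78, 6.87 and 6.99 on the NaCl arrays and from 6.20 through a median of 6.27 to 6.44 on the caerulein arrays. The groups were apart by 0.33. The means were 6.88 ± 0.08 (SD, n = 5) and 6.29 ± 0.09 (SD, n = 6), a difference of -0.60 (SE 0.07, 95% interval -0.74 to -0.45, adjusted p = 1.08e-05 in the limma fit). The second, dimmer Vipr1 probe set moved the same way, from 5.72 ± 0.09 to 5.37 ± 0.07 (SD, n = 5 and 6), a difference of -0.36 (adjusted p = 5.66e-04).

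Vipr2 had the largest fall after Cckar among the 7 genes. NaCl values were 6.40, 6.31, 6.46, 6.34 and 6.29, and caerulein values ran from 5.45 through a median of 5.66 to 5.98. The caerulein arrays were all lower, by a gap of 0.32, with replicate 6 nearest to the NaCl range. The caerulein means of Vipr2 (5.68) and Sctr (5.91) lay below 5.93, the 99th percentile of the olfactory and vomeronasal receptor genes, so the size of their falls is less certain. The means were 6.36 ± 0.07 (SD, n = 5) and 5.68 ± 0.17 (SD, n = 6), a difference of -0.68 (SE 0.09, 95% interval -0.87 to -0.50, adjusted p = 3.21e-05 in the limma fit). Among the 7 genes, Cckar and Vipr2 lay below the 5th percentile of the differences of genes of their own band of mean level, which was -1.02 for Cckar and -0.59 for Vipr2. The falls of Chrm1, Sctr and Vipr1 lay within that range, whose 5th percentile was -0.66 for Chrm1 and Sctr and -0.69 for Vipr1.

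The falls of Cckar, Chrm1, Sctr, Vipr1 and Vipr2 passed the test in all 22 alternative analyses that were run. These covered scaling, variance prior, array weights, a filter on dim probe sets, the replicate number, the choice of probe set and arrays left out. They are not independent checks: 11 left out 1 array each, and the variance prior and the dim filter left the differences as they were. Only Vipr1 had a second probe set, so that choice could not change the differences of the other genes. The difference nearest to 0 over those alternatives was -3.92 for Cckar, -0.47 for Chrm1, -0.47 for Sctr, -0.48 for Vipr1 and -0.56 for Vipr2. With caerulein replicates 1 to 3 alone Cckar differed by -3.92 from the NaCl arrays, and with replicates 4 to 6 alone by -4.19.

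**Figure D2:**
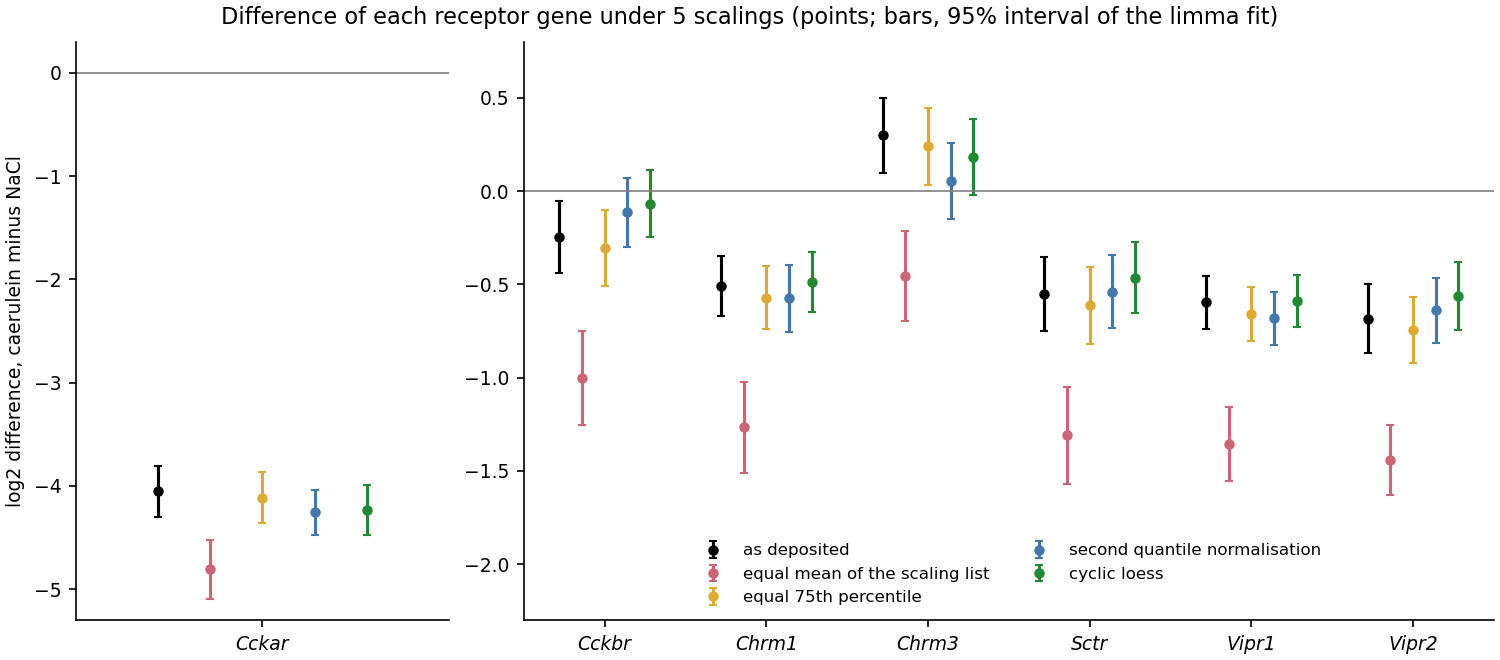
Log2 difference (caerulein minus NaCl) of each receptor gene as deposited and under 4 other scalings; points are differences and bars are 95% intervals of the limma fit (5 NaCl and 6 caerulein arrays). Cckar, on its own axis, stays between -4.81 and -4.05, and Chrm3 lies on both sides of 0.

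A comparison within each array asks whether Cckar changed more than the other receptors, since a shift of a whole array cancels in it. Compared were 6 pairs, each Cckar against 1 of the other genes, by exact permutation tests over the 11 arrays (two-sided). Against Vipr2 the change of Cckar was more negative by 3.37 (difference -3.37), which is 10.3-fold. Against Vipr1 it was -3.46, against Sctr -3.50, against Chrm1 -3.54 and against Cckbr -3.81. The widest separation was from Chrm3, at -4.35 or 20.4-fold. The NaCl and caerulein arrays did not overlap in any of the 6 pairs. Vipr2, Sctr and Cckbr are dim in caerulein pancreas, so the fold sizes against them are less certain. Each exact p was 0.00433, which is the smallest that 5 against 6 arrays allow, and the Benjamini-Hochberg value over the 6 pairs was also 0.00433. The pairs were set up with earlier results of these data known, and all 6 share the values of Cckar. Their separation follows from the differences given above for the single genes. These p-values are therefore not independent and give no separate support for the fall of Cckar. Over 15 alternatives the differences between changes ran from -4.44 to -3.15.

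**Figure D3:**
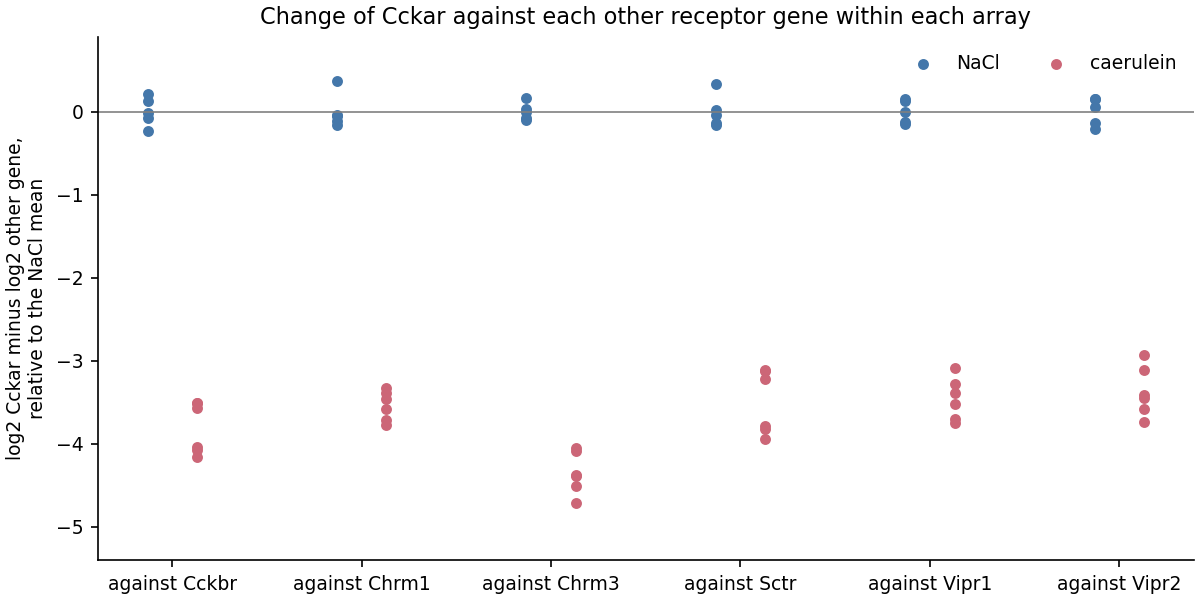
Log2 value of Cckar minus that of each other receptor gene within an array, set relative to the NaCl mean of that pair; points are arrays (blue, 5 NaCl; red, 6 caerulein). The caerulein arrays lie apart from the NaCl arrays in all 6 pairs, with mean shifts of -3.37 (Vipr2) to -4.35 (Chrm3).

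The genes whose pattern over the 11 arrays was most like that of Cckar were found by root mean square distance, on the log2 scale, between profiles taken from their own NaCl means. They were Gatm (distance 0.62), which encodes glycine amidinotransferase of creatine synthesis, Dbp (0.70), a circadian transcription factor, Slc7a8 (0.88), an amino acid transporter, Lrrn1 (0.96), a leucine-rich repeat membrane protein, and Aass (1.01), an enzyme of lysine breakdown. Their own falls were 9.36-fold, 9.03-fold, 7.47-fold, 6.95-fold and 6.62-fold, all smaller than the 16.6-fold fall of Cckar. The caerulein means of Dbp, Lrrn1 and Aass (5.89, 5.23 and 5.17) lay below 5.93, the 99th percentile of the olfactory and vomeronasal receptor genes. The size of their falls is therefore less certain. Gatm, Dbp, Slc7a8 and Lrrn1 ranked directly after Cckar among falls of all genes, and the distance over these arrays is set mainly by the size of the difference between the groups.

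**Figure D4:**
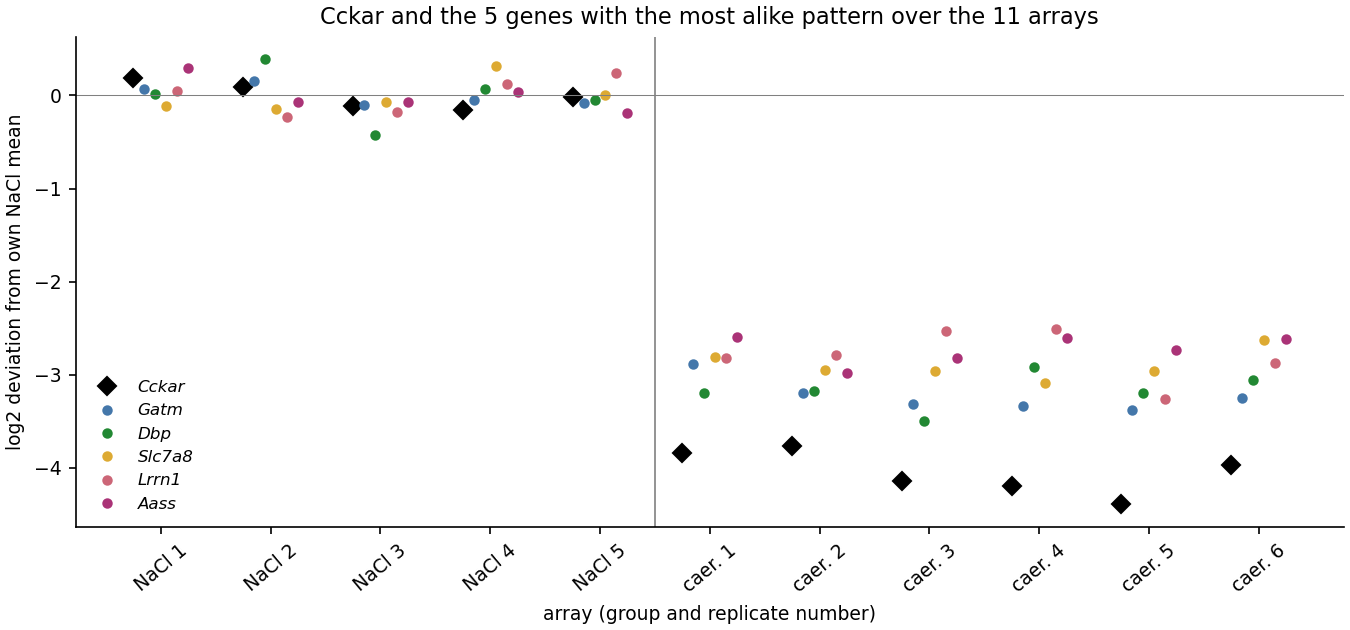
Log2 deviation from each gene's own NaCl mean on the 11 arrays (x axis, group and replicate number) for Cckar (black diamonds) and the 5 genes most like it. All 6 genes lie near 0 on the NaCl arrays, and on every caerulein array Cckar is the lowest.

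Genes that encode, make or break down the ligands were read next. Of 13 listed, 7 were lower and 1 higher. Their median difference was -0.25. The count of lower genes was 4 after cyclic loess and after the second quantile normalisation, 11 with an equal 75th percentile and 12 with the reference-gene scaling, and over all genes 34.3% were lower as deposited. Sct, the secretin gene, fell from 5.99 ± 0.03 (SD, n = 5) to 5.51 ± 0.16 (SD, n = 6), a difference of -0.49 (adjusted p = 2.68e-04) that passed in all 22 alternatives. The caerulein mean of Sct lay below 5.93, the 99th percentile of the olfactory and vomeronasal receptor genes, so the size of its fall is less certain. Cck, the cholecystokinin gene, differed by -0.25 (adjusted p = 0.0176), and Chat, which makes acetylcholine, by -0.27 (adjusted p = 0.0225). After cyclic loess these were -0.07 (adjusted p = 0.542) for Cck and -0.08 (adjusted p = 0.506) for Chat. Gast, Vip and Adcyap1, the genes of gastrin, vasoactive intestinal peptide and PACAP, differed by -0.22, -0.20 and -0.19 and did not pass (adjusted p = 0.0851, 0.116 and 0.0763). The caerulein means of Cck, Vip and Chat (4.52, 4.08 and 4.90) lay in the dim range, under 5.16, the 95th percentile of the olfactory and vomeronasal receptor genes. These transcripts were read in pancreas, whereas cholecystokinin and secretin reach it mainly from the gut.

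The exception was Tac1, which encodes the neuropeptide substance P. It read 3.63, 3.84, 3.56, 3.68 and 3.14 on NaCl arrays and 8.26, 7.77, 8.84, 5.99, 7.94 and 7.38 on caerulein arrays. All caerulein arrays were above all NaCl arrays, with replicate 4 the lowest of them. The NaCl mean of 3.57 was close to 3.55, the median of the olfactory and vomeronasal receptor genes, so the NaCl side was not above background by this measure and no fold is given. The measured difference was 4.13 (SE 0.38, adjusted p = 2.37e-06), and it stayed at 3.37 or more in all 22 alternatives. Bche and Ache, the cholinesterases, fell. Bche differed by -1.73 (adjusted p = 1.39e-08), with a caerulein mean of 4.08 that lay under the same 95th percentile of 5.16, so no fold is given. Ache differed by -0.54 (adjusted p = 0.00371), a 1.46-fold fall. Both means of Ache (5.876 and 5.335) lay below 5.93, the 99th percentile of the olfactory and vomeronasal receptor genes, so that size is less certain. The fall of Ache did not pass with caerulein replicates 4 to 6 alone (-0.42, adjusted p = 0.058).

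A further list held 22 measured genes of receptors of the exocrine pancreas other than the 7, and of receptor partner proteins. Of these, 10 were lower and 0 higher in the limma fit, beside 34.3% and 20.3% of all genes. At an unadjusted p under 0.05, 0 were higher too. The count of lower genes ran from 5 after cyclic loess to 22 with the reference-gene scaling, where 18.2% and 86.5% of all genes were lower. Grpr, the receptor for gastrin-releasing peptide and another Gq-coupled secretagogue receptor of acinar cells, fell most. It read 7.06, 6.86, 7.35, 7.51 and 7.14 on NaCl arrays and from 4.67 through a median of 4.94 to 5.30 on caerulein arrays. The groups were far apart, and the difference was -2.21 (SE 0.14, adjusted p = 7.79e-08). The caerulein mean of 4.97 was also under that 95th percentile, so no fold is given. Ramp1, a partner protein of calcitonin-family receptors, differed by -0.58 (adjusted p = 1.03e-04).

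Downstream of Gq, 5 of 16 measured genes were lower and 3 higher, which is near the shares of all genes (34.3% and 20.3%), and with the reference-gene scaling 14 were lower and 1 higher. Gna14, a Gq-family alpha subunit, had a NaCl mean of 6.99 ± 0.34 (SD, n = 5) and a caerulein mean of 5.26 ± 0.17 (SD, n = 6), a 3.31-fold fall (difference -1.73, adjusted p = 6.95e-07). The caerulein mean of Gna14 lay below 5.93, the 99th percentile of the olfactory and vomeronasal receptor genes, so the size of its fall is less certain. Itpr2, one of the inositol trisphosphate receptors that release calcium in acinar cells, fell 1.96-fold (difference -0.97, adjusted p = 2.65e-07). Prkcd, the delta isoform of protein kinase C, rose 2.24-fold (difference 1.17, adjusted p = 4.55e-07). Plcb3, a phospholipase C beta, rose 1.77-fold (difference 0.82, adjusted p = 2.79e-05), and with the reference-gene scaling its difference was 0.07 (adjusted p = 0.607).

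Downstream of Gs, 10 of 24 measured genes were lower and 4 higher, beside 34.3% and 20.3% of all genes. After cyclic loess the count of lower genes was 5, with the same count of 4 higher, and with the reference-gene scaling 22 were lower and none higher. Pde3b, a phosphodiesterase that breaks down cyclic AMP, fell 2.20-fold (difference -1.14, adjusted p = 9.80e-06), and Adcy9, an adenylate cyclase, fell 1.59-fold (difference -0.67, adjusted p = 1.15e-04). Crem, a cyclic AMP-responsive transcription factor, rose (difference 1.00, adjusted p = 4.14e-05) from a dim NaCl mean of 4.32, and Prkar2a, a regulatory subunit of protein kinase A, rose 1.95-fold (difference 0.96, adjusted p = 3.77e-05). The NaCl mean of Prkar2a (5.78) lay below 5.93, the 99th percentile of the olfactory and vomeronasal receptor genes, so the size of its rise is less certain. With the reference-gene scaling the differences were 0.25 for Crem and 0.20 for Prkar2a and did not pass (adjusted p = 0.123 and 0.203).

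Among receptor kinases, arrestins and regulators of G protein signalling, 7 of 20 measured genes were lower and 4 higher, again near the 34.3% and 20.3% of all genes. After cyclic loess 3 were lower, and with the reference-gene scaling 17 were lower and 1 higher. Rgs2, which limits Gq signalling, rose 3.63-fold from 5.71 ± 0.15 (SD, n = 5), a difference of 1.86 (SE 0.17, adjusted p = 2.10e-06) that stayed at 1.10 or more in all 22 alternatives. Rgs11 fell 2.19-fold (difference -1.13, adjusted p = 2.37e-06) and Rgs20, dim in both groups (means 4.28 and 3.92), fell too (difference -0.36, adjusted p = 0.00183). The NaCl mean of Rgs2 and the caerulein mean of Rgs11 (5.90) lay below 5.93, the 99th percentile of the olfactory and vomeronasal receptor genes. Their fold sizes are therefore less certain. Grk6, a receptor kinase, rose 1.63-fold (difference 0.70, adjusted p = 2.24e-05) as deposited. With the reference-gene scaling the sign turned and the difference did not pass (-0.05, adjusted p = 0.558).

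**Figure D5:**
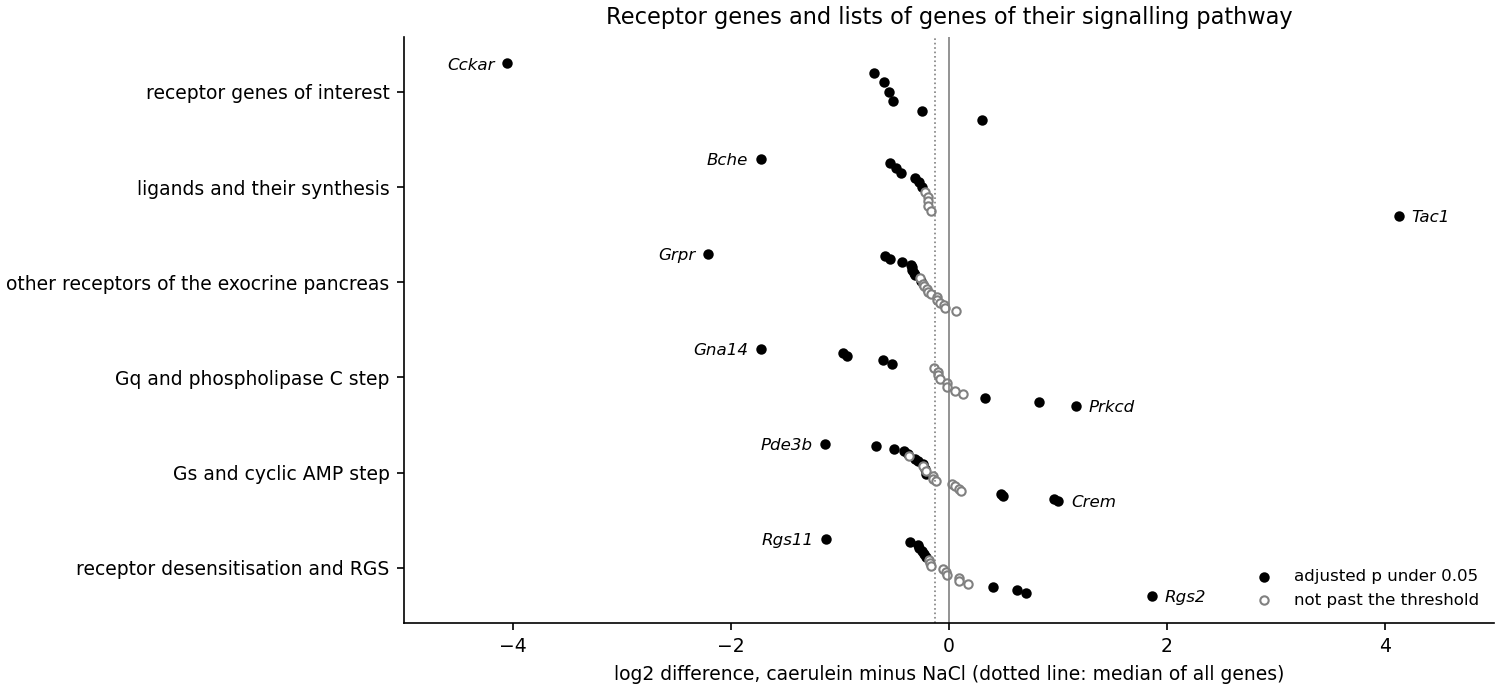
Log2 difference (caerulein minus NaCl, x axis) of the 7 receptor genes and of the genes in 5 lists of their signalling pathway (rows). Each point is a gene, filled where the adjusted p was under 0.05 in the limma fit; genes past 2-fold are named and the dotted line is the median of all genes, -0.13. Cckar lies at -4.05 and Tac1 at 4.13.

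Markers of the cell types in whole pancreas moved as well. In bulk tissue, fewer cells of a type and less RNA per cell cannot be told apart. Of 16 acinar genes measured, 8 were lower and 1 higher, and the mean level of the list was 12.11 to 12.28 on NaCl arrays and 11.66 to 11.75 on caerulein arrays. Bhlha15, a transcription factor of mature acinar cells, fell 4.00-fold (difference -2.0, adjusted p = 3.85e-08). The other transcription factors of the list were divided. Rbpjl and Nr5a2 fell (-1.43 and -0.83), and Gata4 did not pass (0.035). Ptf1a was the 1 higher gene (0.554, adjusted p = 0.00823, limma), and it did not pass after the second quantile normalisation (0.285, adjusted p = 0.164). The enzyme and granule genes of the list were divided, and those named here were chosen after their values were seen. Ctrc, a chymotrypsinogen gene, fell from 9.47 to 8.08 (difference -1.39), and Rnase1, Zg16 and Sycn fell as well (-0.71, -0.68 and -0.31). Cpa1, Cela1 and Ctrb1 differed by -0.04, -0.07 and 0.03 and did not pass, with mean levels above 14 in both groups, near the top of the array's range. The median difference of the acinar list was -0.16, beside -0.13 for all genes, and 7 of its genes did not pass. Its lower mean level was thus set largely by its larger falls. The part of the acinar list in the fall of Cckar was not tested.

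Of 11 duct genes, 6 were higher and 2 lower, with list means of 6.43 to 6.54 on NaCl arrays and 7.14 to 7.33 on caerulein arrays. Krt19, a duct keratin, rose 20.9-fold (difference 4.39). Epcam and Krt7 rose as well (2.16 and 1.94), and with Krt19 had the largest rises of the list. Muc1 and Onecut1 were the 2 lower genes (-1.14 and -0.66). All of these but Krt19 were named after their values were seen. Sctr fell while the mean level of the duct list was higher, a mean set largely by those rises. The part of the duct list in the fall of Sctr was not tested. Of 11 islet genes 5 were lower and none higher, also at an unadjusted p under 0.05 (limma), with overlapping list means of 7.07 to 8.0 and 6.98 to 7.64, and after cyclic loess 2 were lower. Pdx1, a transcription factor of islets, differed by -0.79. The hormone genes were divided, and they were named after their values were seen. Ins2, Gcg and Iapp differed by 0.02, 0.28 and 0.25 and did not pass. Sst differed by -0.42 and did not pass (adjusted p = 0.316, limma), and Ppy was lower (-0.305, adjusted p = 0.0405, limma). Of 12 stellate cell and fibroblast genes 5 were higher and 1 lower (list means 6.75 to 7.06 and 6.89 to 7.50), with Vim, the mesenchymal filament gene, at 1.03. With the reference-gene scaling Vim differed by 0.27 and did not pass (adjusted p = 0.0783, limma). Acta2, Pdgfra, Col3a1 and Tagln were the other higher genes, and Lum was lower (-0.77, adjusted p = 0.00161, limma). Des, Pdgfrb, Col1a1, Col1a2, Dcn and Rgs5 did not pass. Of 10 endothelial genes 3 were higher and 1 lower (6.22 to 6.33 and 6.27 to 6.43). Pecam1, an endothelial adhesion gene, differed by 0.39 as deposited and by -0.37 with the reference-gene scaling. Cdh5 and Egfl7 were the other higher endothelial genes, and Vwf was lower (-0.33, adjusted p = 0.00456, limma). The stellate and endothelial genes other than Vim and Pecam1 were named after their values were seen.

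Of 13 macrophage and neutrophil genes, 6 were higher and 1 lower. The list means were 5.07 to 5.14 on NaCl arrays and 5.51 to 6.24 on caerulein arrays. The higher genes were Adgre1, Cd68, Cd14, Lyz2, Itgam and Fcgr3, and the lower gene was Mpo (-0.227, adjusted p = 0.0184, limma). Csf1r and the neutrophil genes S100a8, S100a9, Ly6g, Cxcr2 and Csf3r did not pass as deposited. After cyclic loess S100a8 was higher (0.527, adjusted p = 0.024, limma). Cd14, a monocyte surface gene, rose (difference 2.31) from a dim NaCl mean of 5.13. Of 12 lymphocyte genes, 5 were lower and 1 higher (list means 5.00 to 5.25 and 4.80 to 5.10), with 1 lower after cyclic loess, 2 after the second quantile normalisation and 11 with the reference-gene scaling. Jchain of plasma cells differed by -0.66 (adjusted p = 0.111). Its NaCl values were 4.70, 4.62, 3.91, 6.02 and 4.19, and with single arrays left out the difference ran from -0.855 to -0.327. The lower lymphocyte genes were Cd3e, Cd3g, Cd4, Cd8a and Cd79b, and the higher gene was Ptprc (0.519, adjusted p = 0.0166, limma). Of 9 nerve and Schwann cell genes, 7 were lower and none higher, also at an unadjusted p under 0.05 (limma; list means 5.34 to 5.45 and 5.06 to 5.21), with Th of sympathetic nerves at -0.54. The count of lower nerve genes was 3 after the second quantile normalisation and 1 after cyclic loess. Beside these marker counts, 34.3% of all genes were lower and 20.3% higher as deposited. With the reference-gene scaling the median differences of the duct, stellate, endothelial and macrophage lists turned negative (-0.43, -0.54, -0.61 and -0.37). The part of these lists in the receptor changes was not tested.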

How the data were processed

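The authors deposited log2 expression values made with RMA (oligo package), per the submitters' processing notes, which also name limma. The sources used here give no versions, genome build or batch. Degraded RNA was excluded, per the labels. Of 35556 probe sets, 21789 had 1 symbol in the platform annotation, 1621 several and 12146 were unlisted. Entrez identifiers matched the reference table for 21698, with 0 symbols changed. The brightest single-symbol probe set stood for each gene.

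The values were fitted with limma 3.58.1 (R 4.3.3; lmFit and eBayes) on all probe sets, with Benjamini-Hochberg adjustment and a threshold of 0.05. Exact permutation tests used scipy 1.17.1 (Python 3.11.15), and plots matplotlib 3.10.9. The fit was tested on simulated data. Named were all 7 receptors, their ligands, up to 2 called genes per direction in each pathway list, and up to 2 of each marker list. Also named were the 5 genes most like any receptor past 2-fold, and further marker genes after their values were seen. The members and lists were chosen with earlier results of these data known. Alternatives covered scaling, variance prior, array weights, dim probe sets, probe set choice, replicate block and left-out arrays. The number of arrays limits the precision.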

Additional observations from a re-analysis of the deposited data

Results flagged for a closer look

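Among 86 groups of arrays checked for a value far from the rest (a gap over 0.625 of the range for 6 arrays), 3 stood out, where chance gives about 1 in 20, and none was of a secretagogue receptor gene. Crem read 5.75 on caerulein replicate 1, with a gap of 0.647 of the group's range. Gatm read 8.73 on the same array (gap 0.629). Vip read 4.39 on caerulein replicate 3 (gap 0.732), and without that array its difference was -0.26 (adjusted p = 0.0275, limma).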

How the results depend on the processing

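The falls of Cckar, Chrm1, Sctr, Vipr1 and Vipr2 passed in all 22 alternatives, and the 6 pair differences kept their direction and call in all 15. The count of receptor genes called lower ran from 5 to 7, and from 5 to 6 when each array was left out. The count called higher was 0 with the reference-gene scaling, second quantile normalisation, cyclic loess, and caerulein replicates 1 to 3 or 4 to 6 alone, and 0 to 1 when each array was left out. Cckbr failed to pass in 12 alternatives and Chrm3 in 5. With the reference-gene scaling Chrm3 reversed to -0.46, Grk6 to -0.053 and Pecam1 to -0.37. The share of lower among called probe sets was 62.9% as deposited, 95% with this scaling, 72.1% with an equal 75th percentile, 56.3% after the second quantile normalisation and 46.4% after cyclic loess. Same-numbered arrays of the 2 groups did not deviate together (correlations -0.0517 to 0.0598), so the numbers were not read as pairs. With the replicate block, 5 receptor genes were lower and 1 higher, and Cckbr was at -0.21 (adjusted p = 0.0796). The cause of the differences between scalings was not tested. The filter on dim probe sets gave no value for Bche, Crem, Rgs20, Jchain, Cck, Vip and Chat. Dim signal limits what can be read for Cckbr and the size of the falls of Vipr2, Sctr and Sct. It also limits the fold sizes of Ache, Gna14, Prkar2a, Rgs2, Rgs11, Dbp, Lrrn1 and Aass.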
